A study of Saccharomyces cerevisiae with 4 samples.

Results

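The genes described here encode 10 mannoproteins of the budding yeast cell wall: the Pir proteins PIR1, PIR3, HSP150 and CIS3, and the GPI proteins CWP1, CWP2, CCW12, TIP1, SED1 and TIR1. They were taken by gene symbol from the annotation of the Affymetrix Yeast Genome 2.0 array, which gave all 10 of the symbols sought, each with 1 probe set, among 5449 S. cerevisiae genes. Total RNA from exponentially growing cells in rich medium with glucose was measured on 4 arrays. Of these, 2 came from wild type cells (strain K699, MATa) and 2 from cells of strain Y3501, labelled MATa with wpl1∆::KAN, a deletion of the gene for the cohesin release factor Wpl1. Each replicate number holds 1 wild type and 1 deletion array, whose descriptions carry the same date tag. The labels do not say whether the arrays of a genotype came from separate cultures, so p-values cover only how far these arrays spread, which may be technical.

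The yeast wall is a mesh of beta-glucan and chitin with an outer layer of heavily mannosylated proteins. GPI proteins reach the wall by way of a lipid anchor that is cut when the protein is joined to glucan. Pir proteins, named for their internal repeats, are joined to glucan by an alkali-sensitive bond, and several of their transcripts are known to peak near the M/G1 transition of the cell cycle. Stress, cold and low oxygen are known to regulate TIP1 and TIR1.

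Values are log2 expression, so a difference of 1 is a doubling, and levels are not compared between genes because each gene has its own probes. Background was set in each array at the 95th percentile of the 1746 S. pombe (fission yeast) probe sets, between 5.79 and 6.10. All 10 wall genes lay above it in all 4 arrays, TIR1 by the smallest margin, 0.24 in deletion replicate 2. RAD61, the standard name of the WPL1 gene, was above background in the wild type arrays alone, and the deletion arrays were lower by at least 1.46-fold. All 6 measured a-cell marker genes were above background in every array, against 2 of 5 alpha-cell genes in every array and 2 in none. STE3, a receptor gene of alpha cells, and HMLALPHA1 were in none. MF(ALPHA)2 and SAG1 were above background in all 4 arrays and MF(ALPHA)1 in 3.

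PIR3 was higher and PIR1 lower in both deletion arrays than in both wild type arrays, although neither difference passed the test over all genes. In replicate 1, PIR3 read 7.92 in wild type against 8.65 in the deletion, and in replicate 2 it read 7.47 against 8.19. Both deletion values lay above both wild type values, and within each genotype replicate 2 was the lower array. The wild type mean was 7.69 ± 0.32 (SD, n = 2) and that of the deletion 8.42 ± 0.32 (SD, n = 2), a difference of 0.73 or 1.65-fold (SE 0.30, adjusted p = 1 in limma). The replicates gave 0.73 and 0.72. With the replicate number as a block, which takes the shared date out of the error, its SE was 0.14 (unadjusted p = 0.00306, adjusted p = 0.996 in limma). Of the 5449 genes, 2 were at least as far above 0 in both replicates as PIR3 was in its smaller replicate. One was PIR3 itself, and the other was DCG1, a chromosome IX gene that was not above background in wild type.

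PIR1 read 11.07 in wild type against 10.81 in the deletion in replicate 1, and 11.52 against 10.84 in replicate 2. Wild type replicate 2 was the highest array, and the deletion arrays lay close together below both wild type arrays. Wild type averaged 11.30 ± 0.32 (SD, n = 2) against 10.83 ± 0.027 (SD, n = 2) for the deletion. PIR1 was thus 1.39-fold lower in the deletion, a log2 difference of -0.47 (SE 0.26, adjusted p = 1 in limma). By replicate the difference was -0.27 and -0.68, and 87 genes of 5449, PIR1 included, were at or below -0.27 in both. With the block the SE was 0.16 (unadjusted p = 0.0345, adjusted p = 0.996 in limma). In bulk RNA, a change in the share of cells in the phase that makes a transcript and a change in its amount per cell cannot be told apart. This limit holds for PIR1 and PIR3 alike, since several Pir transcripts are known to peak near M/G1.

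**Figure D1:**
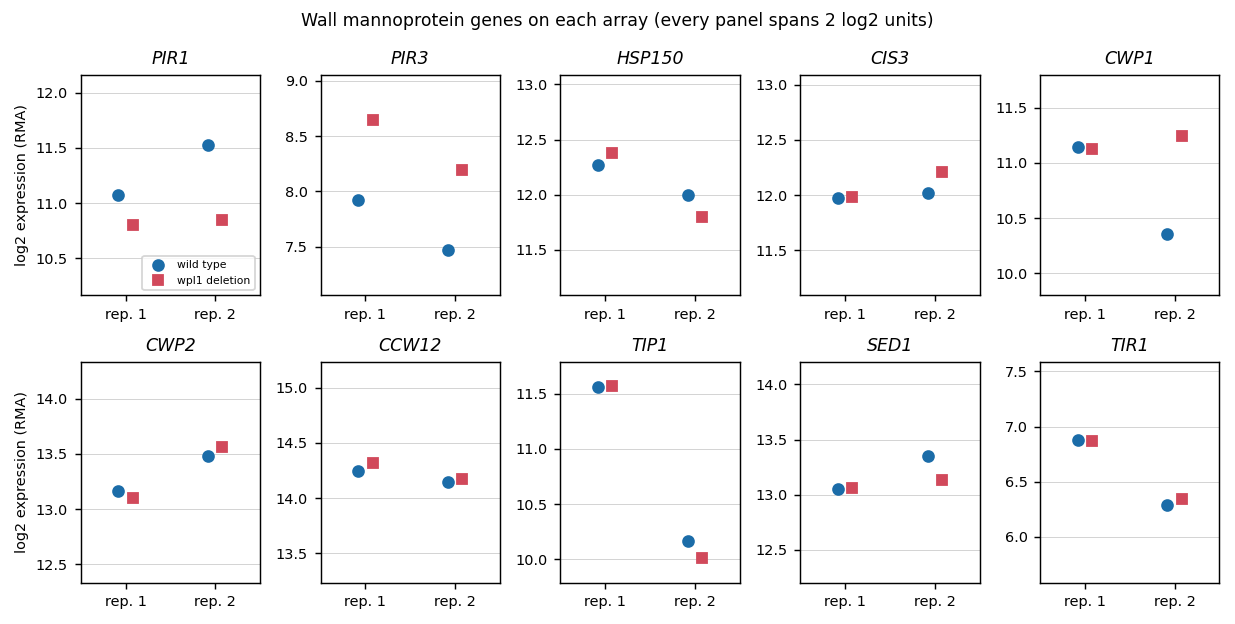
Log2 expression of the 10 wall genes on each array, by replicate number on the horizontal axis, with circles for wild type and squares for the wpl1 deletion. Each panel spans 2 log2 units around its own centre; PIR3 deletion arrays (8.65 and 8.19) sit above the wild type arrays, PIR1 deletion arrays (10.81 and 10.84) below them, and TIP1 drops from about 11.6 to 10.0 to 10.2 in replicate 2 of both genotypes.

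The pair lies side by side on chromosome XI. PIR1 (YKL164C) and PIR3 (YKL163W) are read away from each other, so their starts face the same stretch between the genes. The genes on the outer sides of the pair had genotype differences near 0. MCD4 (YKL165C), a GPI anchor enzyme, was at -0.01 (SE 0.23) and YKL162C at 0.03 (SE 0.35). The difference between the PIR3 and PIR1 genotype differences was 1.20 on the log2 scale, or 2.30-fold, with 0.996 in replicate 1 and 1.40 in replicate 2. Its exact two-sided permutation p was 0.333, which is the smallest that 2 arrays against 2 can give. The pair was set against each other with earlier values of these arrays known, so the size is a description. The same quantity also differed between the replicate numbers. Replicate 2 minus replicate 1 gave -0.90 for wild type and -0.49 for the deletion, with PIR1 at 0.45 and PIR3 at -0.45 for wild type, and at 0.04 and -0.46 for the deletion.

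The other 2 Pir genes, HSP150 and CIS3, overlapped between the genotypes. HSP150, which encodes a heat-inducible secreted Pir protein, read 12.27 in wild type against 12.38 in the deletion in replicate 1, and 11.99 against 11.79 in replicate 2. The deletion array was the higher one in replicate 1 (0.11) and the lower one in replicate 2 (-0.20). CIS3, a further Pir protein gene, read 11.97 against 11.98 in replicate 1 and 12.02 against 12.21 in replicate 2. The genotypes were thus 0.01 and 0.20 apart (mean 0.10, SE 0.24). HSP150 (YJL159W) and CIS3 (YJL158C) are neighbours on chromosome X that are read toward each other. PIR5, the Pir gene on the other side of HSP150, was at -0.04 (SE 0.24). None of these passed in limma.

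Among the GPI genes the genotypes overlapped for all 6. CWP1 had the largest mean difference, 0.44 (SE 0.33), and a single array decided it. In replicate 1 it read 11.14 in wild type against 11.12 in the deletion, and in replicate 2 it read 10.35 against 11.25. Wild type replicate 2 is low and the other arrays lie close together. The replicates gave -0.02 and 0.89, and the mean difference was 0.04 without wild type replicate 2. CWP2, which encodes a major wall mannoprotein and lies next to CWP1 on chromosome XI in the same orientation, read 13.16 in wild type against 13.10 in replicate 1, and 13.48 against 13.56 in replicate 2. Its mean difference was 0.01 (SE 0.28), with -0.06 and 0.08 in replicates 1 and 2.

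CCW12, needed for a stable wall at sites of growth, varied least over the arrays. Wild type read 14.24 against 14.32 for the deletion in replicate 1, and 14.15 against 14.17 in replicate 2, a range of 0.17. The highest value on any array was 15.05, and whether signal this bright is compressed was not tested. Its genotype difference was 0.05 (SE 0.23), and -0.0090 after quantile normalization over the S. cerevisiae genes. SED1, a wall protein known to be abundant in stationary phase, read 13.06 in both genotypes in replicate 1, and 13.35 in wild type against 13.13 in replicate 2. The difference was 0.01 in replicate 1 and -0.22 in replicate 2, with a mean of -0.11 (SE 0.24).

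TIP1 and TIR1, both of the family of serine-rich and alanine-rich wall proteins, were nearly equal between genotypes in replicate 1. TIP1 read 11.56 in wild type against 11.57 in the deletion in replicate 1, and 10.16 against 10.01 in replicate 2, so the genotypes were 0.01 and -0.15 apart. TIR1 read 6.88 against 6.87 in replicate 1 and 6.29 against 6.35 in replicate 2, with differences of -0.01 and 0.06. For both genes the arrays separate by replicate number and not by genotype.

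Counted together, 0 of the 10 wall genes passed the genotype test at an adjusted p under 0.05 in limma, with or without the block, against 0% of all 5449 genes in either fit. RAD61, the deleted gene, did not pass either, at -2.47 and -2.11 in replicates 1 and 2 (adjusted p = 0.141 in limma with the block). A gene that did not pass is thus not shown to be unchanged. At an unadjusted p under 0.05 the count was 0 of 10, against 0.184% of all genes. With the block, 2 of 10 (PIR1 and PIR3) were under 0.05 unadjusted, against 2.86% of all genes. The arrays did not overlap between genotypes for 2 of 10, against 13.9% of all genes, and these were again PIR1 and PIR3. Because the members were chosen with earlier results of these data known, these shares are descriptions and carry no test. The sign was the same in both replicates for 4 of 10 (PIR1, PIR3, CIS3 and CCW12), against 48.2% of all genes. The median genotype difference of the 10 was 0.02, beside -0.025 over all genes. In replicates 1 and 2 it was 0.01 and 0.04, beside 0.04 and -0.10 over all genes.

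**Figure D2:**
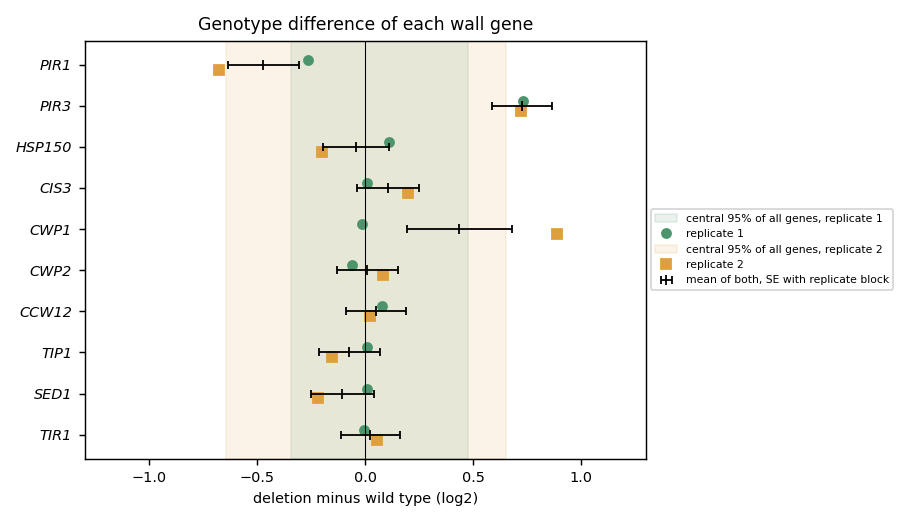
Log2 difference of deletion minus wild type for each wall gene, with a circle for replicate 1, a square for replicate 2 and a black tick with bars for the mean and its SE with the replicate block. The shaded bands hold the central 95% of all genes, from -0.34 to 0.48 in replicate 1 and from -0.64 to 0.65 in replicate 2; PIR3 lies beyond both bands, while PIR1 and CWP1 lie beyond the band in replicate 2 alone.

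**Figure D3:**
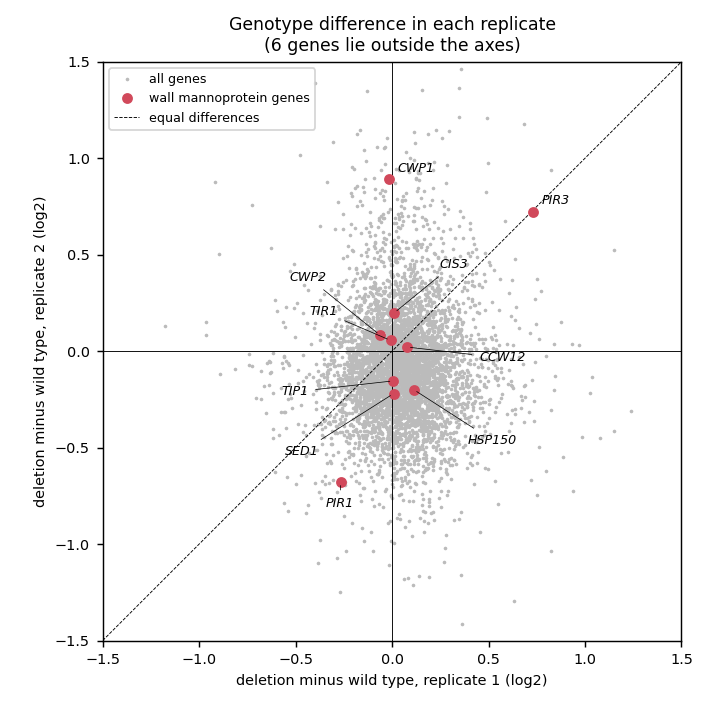
Deletion minus wild type (log2) in replicate 1 on the horizontal axis and in replicate 2 on the vertical axis, with grey points for all genes and red points for the wall genes. PIR3 (0.73 and 0.72) lies on the line of equal differences, CWP1 (-0.02 and 0.89) on the vertical axis and the other wall genes apart from PIR1 near the centre; 6 genes lie outside the axes.

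TIP1 and TIR1 were lower in replicate 2 than in replicate 1 and passed the test in limma, 2 of 10 wall genes against 28.4% of all genes in either direction and 19.7% lower, so the share called is no higher than the background. TIP1 went from 11.56 ± 0.0047 (SD, n = 2) in replicate 1 to 10.09 ± 0.11 (SD, n = 2) in replicate 2, a fall of 2.79-fold (log2 difference -1.48, SE 0.13, adjusted p = 0.00737 in limma). Wild type gave -1.40 and the deletion -1.56, and 0.551% of all genes had a lower value. TIR1 went from 6.87 ± 0.0053 to 6.32 ± 0.039 (SD, n = 2 each), a fall of 1.47-fold (log2 difference -0.55, SE 0.12, adjusted p = 0.0242 in limma). With the genotype as a covariate, where 19.4% of all genes passed, TIR1 no longer did (adjusted p = 0.0505 in limma), while TIP1 passed (0.0258). TIR1 missed the threshold in 5 of 12 alternative fits, TIP1 in none of 12.

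The remaining 8 wall genes did not pass between replicate numbers. CWP2 was higher in replicate 2 in both genotypes (0.32 for wild type, 0.46 for the deletion, adjusted p = 0.0597 in limma). HSP150 was lower in both (-0.28 and -0.59, adjusted p = 0.0599 in limma). SED1 was at 0.29 and 0.07, CIS3 at 0.04 and 0.23, and CCW12 at -0.09 and -0.15. After quantile normalization over the S. cerevisiae genes, the mean of CCW12 changed sign, from -0.12 to 0.09. PIR3 differed by the same amount in both genotypes (-0.45 and -0.46), whereas PIR1 did so mainly in wild type (0.45 and 0.04). CWP1 had opposite signs, -0.79 for wild type and 0.12 for the deletion. The arrays of the replicate numbers did not overlap for 7 of the 10, against 69.3% of all genes. The sign was shared by both genotypes for 9 of 10, CWP1 being the exception, against 76.6% of all genes. The median over all genes was itself -0.13 between the replicate numbers (-0.07 for wild type, -0.20 for the deletion), beside -0.23 for the wall genes. Centring each array on its median gene therefore turned the split of all calls from 477 higher and 1073 lower to 761 and 827, and quantile normalization over the genes gave 762 and 756. With centring TIP1 was at -1.37 and TIR1 at -0.45.

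**Figure D4:**
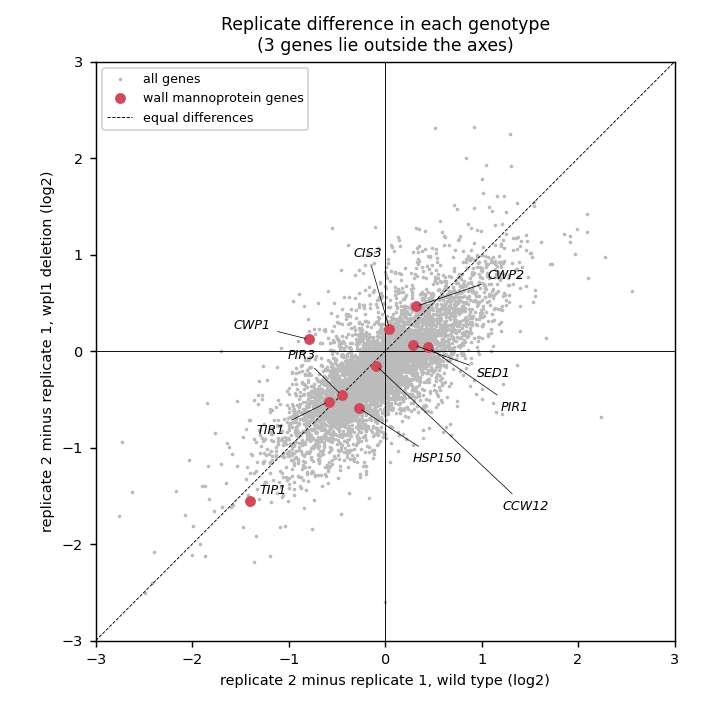
Replicate 2 minus replicate 1 (log2) in wild type on the horizontal axis and in the wpl1 deletion on the vertical axis, with grey points for all genes and red points for the wall genes. TIP1 lies far down the line of equal differences (-1.40 and -1.56), PIR3 and TIR1 lie on it, and CWP1 (-0.79 and 0.12) lies off it; 3 genes lie outside the axes.

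In the pattern over the 4 arrays, each gene centred on its own mean, PIR1 and PIR3 stood far apart. Ordered by Euclidean distance from PIR1 over 5038 other genes above background in all arrays, PIR3 came 4876th, with a distance of 1.40. Among the 10 wall genes, SED1 was the closest to PIR1, in place 363 (distance 0.38). The 5 closest genes of all were YDR524W-C, TMN2, JHD2, TEC1 and YCK3, at distances from 0.085 to 0.14. TEC1, a transcription factor gene of filamentous growth, was at -0.20 and -0.58 between genotypes in replicates 1 and 2. For PIR3 the closest of the 10 was CWP1, in place 183 (distance 0.55). The 5 closest of all were YNL208W, MHF1, PIM1, TIR3 and TOM40, at distances from 0.24 to 0.28. TIR3 is itself a wall mannoprotein gene, though not one of the 10. With 4 arrays, 2 of each kind, these distances describe the arrays and carry no test.

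Genes of wall synthesis and control were read from 10 lists, of whose 150 genes 147 were measured and 144 lay above background in all arrays. None passed the genotype test in limma, with or without the block. The median log2 difference over 11 other wall proteins was -0.09, with 1 above 0. The 2 with the smallest p were HPF1, a wall mannoprotein, and AGA1, the anchor subunit of a-agglutinin. HPF1 was at -0.43 (SE 0.49, or 0.19 with the block) and AGA1 at -0.18 (SE 0.36, or 0.14 with the block). The relatives of TIR1 and TIP1 induced by low oxygen stood at a median of 0.01 (5 genes, among them DAN1, which was above background in 0 arrays). DAN4 was at -0.46 (SE 0.25) and TIR3 at 0.48 (SE 0.29). DAN4 lay 0.06 above background in deletion replicate 2, and what this did to its value was not tested. TIR3 lies on chromosome IX, whose 191 genes had a median of 0.04 in replicate 1 and 0.66 in replicate 2. TIR3 itself was at 0.37 and 0.59, and the part of the chromosome in its value was not tested. No member of the 10 lies on that chromosome.

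For 9 daughter cell separation genes the median was -0.22, with 2 above 0, and for 9 M/G1 transcripts it was -0.26, with 0 above 0. DSE4, a daughter cell glucanase, was at -0.52 (SE 0.29), with -0.11 and -0.94 in replicates 1 and 2. AMN1, a daughter cell regulator of mitotic exit, was at -0.44 (SE 0.39), with -0.10 and -0.77. PCL9, an M/G1 cyclin, was at -0.57 (SE 0.30), with -0.10 and -1.03, and TEC1 at -0.39 (SE 0.25), with -0.20 and -0.58. Both list medians also differed between the replicates. Separation genes were at -0.06 in replicate 1 and -0.45 in replicate 2, and M/G1 transcripts at 0.07 and -0.58. PIR1 was at -0.27 and -0.68 in the same replicates and PIR3, also a Pir gene, at 0.73 and 0.72. The part of the share of M/G1 cells in the PIR1 and PIR3 values was not tested.

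Glucan synthesis and remodelling genes stood at a median of -0.09, with 8 of 23 above 0. GAS3, a member of the glucan-elongating Gas family, was at -0.44 (SE 0.23, or 0.14 with the block), with -0.45 and -0.43 in replicates 1 and 2. SIM1, a SUN family gene on chromosome IX, had -0.04 and 1.06. Chitin genes stood at -0.07, 5 of 12 above 0, with CHS3, the main chitin synthase, at -0.23 (SE 0.24) and BNI4, which places it at the bud neck, at -0.23 (SE 0.23). Cell wall integrity signalling genes had -0.06 over 18 genes, 5 above 0. Of these, MSG5, a phosphatase of MAP kinases, was at -0.34 (SE 0.30), and PRM5, on chromosome IX, was at 0.18 and 0.98 in replicates 1 and 2.

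The enzymes that decorate and anchor mannoproteins gave medians near that of all genes. Mannosylation genes had 0.02 over 24 genes, 14 above 0. VAN1, a subunit of a Golgi mannan polymerase, was at -0.35 (SE 0.24), and PSA1, which makes GDP-mannose, at 0.27 (SE 0.23). GPI anchor synthesis genes had -0.06 over 21 genes, 8 above 0, with CWH43, of anchor lipid remodelling, at -0.29 (SE 0.27) and GPI19, of the first step of anchor synthesis, at -0.26 (SE 0.23). Regulators of wall genes had -0.09 over 15 genes, 5 above 0. SKN7, an osmotic and oxidative stress factor, was at -0.17 (SE 0.25), with opposite signs in replicates 1 and 2 (0.02 and -0.36). KEX2, the protease that trims Pir precursors, was at -0.16 (SE 0.25).

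**Figure D5:**
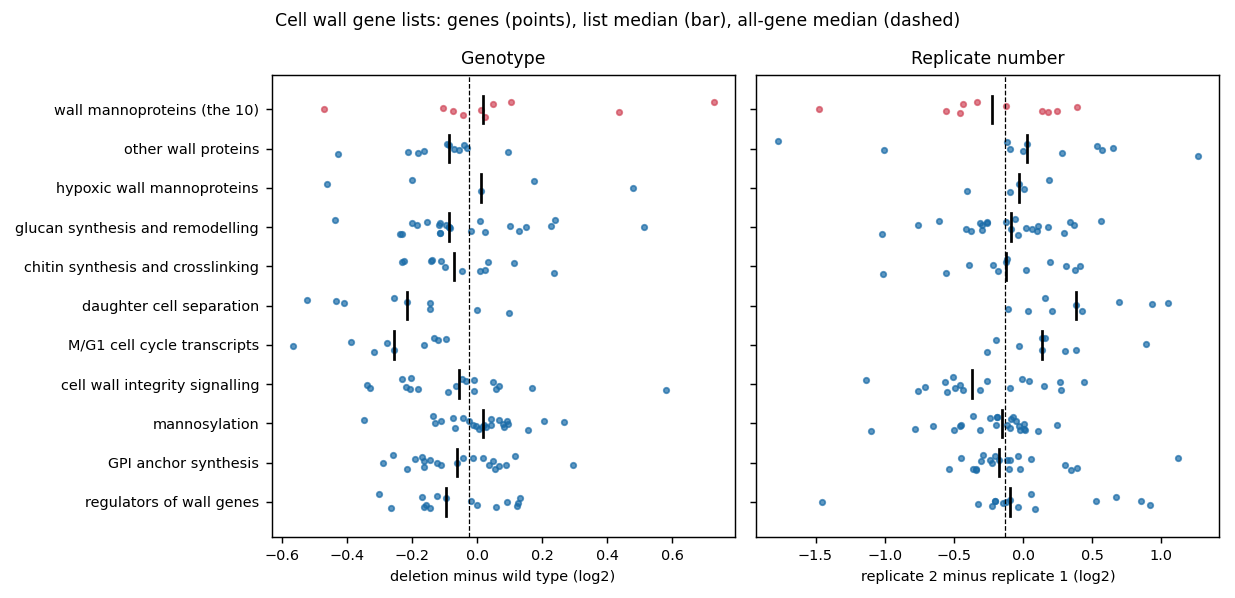
Log2 differences of single genes (points) in the 10 wall mannoproteins and in 10 lists of other cell wall genes, for deletion minus wild type on the left and replicate 2 minus replicate 1 on the right. Black bars mark list medians and dashed lines the median of all genes (-0.025 and -0.13); points range wider between replicate numbers than between genotypes in each list but the hypoxic mannoproteins. TIP1 is the lowest of the 10 between replicate numbers (-1.48) and PIR3 the highest between genotypes (0.73).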

How the data were processed

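The authors deposited log2 expression values per probe set. The submitters' processing notes name RMA and affy, without versions. RMA corrects background, equalises the arrays by quantile normalization and summarises probes, so differences are relative to other transcripts. Per the labels' protocols double-stranded cDNA was labelled, so signal from the 2 strands cannot be told apart.

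Of 10928 probe sets, 5498 belong to S. cerevisiae genes by gene ID in the RefSeq gene table (R64), which also gave neighbours. Probe sets of a gene were averaged (47 genes). No sequence was used. Groups and replicate numbers came from the titles. Same-numbered arrays carry one date tag in their descriptions. They were treated as pairs only in the fits with the block and in differences within a replicate number. Deviations from group means correlated with r = 0.747 between same-numbered arrays across genes. SEs are from the fits without the block unless the block is named, so those of genotype differences include the shift between replicate numbers. Arrays of a genotype were not identical (39 and 25 equal values).

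Genotype and replicate number were each tested over all genes with limma 3.58.1 in R 4.3.3 (two-sided, Benjamini-Hochberg adjusted p under 0.05, 2 residual degrees of freedom), and with the other factor as a block (1 degree of freedom). The number of arrays limits the precision. The limma fits were run on 5 simulated data sets, where mean estimates were checked against known differences. The noise there was set and not taken from these arrays, so this does not show what size of change they could call. Alternatives were the block, dim genes left out, all probe sets, the brightest probe set, centring, quantile normalization over genes, a trended and robust prior, no chromosome IX genes, and each array left out.

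Members and lists were chosen with earlier results of these data known. Named genes were all members, RAD61, the 2 genes of each list with the smallest unadjusted genotype p among those above background in all arrays, and the 5 genes closest in pattern to PIR1 and to PIR3. Neighbours of the members, DCG1, PIR5, the alpha-cell marker genes and list genes that passed between replicate numbers were named after their values were seen.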

Additional observations from a re-analysis of the deposited data

Results flagged for a closer look

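CWP1 moved in opposite directions between the replicate numbers in the 2 genotypes. On the log2 scale, replicate 2 minus replicate 1 gave -0.79 for wild type and 0.12 for the deletion. The difference between these was not tested, since each genotype has 1 array per replicate number. The low value was that of wild type replicate 2 (10.35, against 11.12 to 11.25 in the other 3 arrays), and the probe set is single, so no second measurement of the gene was at hand.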

How the results depend on the processing

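The count of genes past the genotype threshold stayed at 0 in every alternative other than leaving out an array, where it ran from 0 to 3. With the replicate block it was 0. Between replicate numbers 1550 genes passed, 596 of 10928 with all probe sets in the fit, 1056 with the genotype as a covariate, and 290 to 1729 with 1 array left out. With 1 array left out PIR3 ran from 0.50 to 0.95 and PIR1 from -0.70 to -0.25; since their arrays do not overlap between genotypes, these signs could not turn. Neither passed in any fit (smallest adjusted p 0.996 in limma). Their contrast of 1.20 ran from 0.75 to 1.65 with 1 array left out and was 0.996 and 1.40 within replicates 1 and 2 (replicate block). The median genotype difference of the 10 genes ran from -0.049 to 0.19 with 1 array left out. The sign of the genotype difference turned with 1 array left out for HSP150 (-0.34 to 0.25), CIS3 (-0.012 to 0.22), CWP2 (-0.22 to 0.24), CCW12 (-0.025 to 0.12), TIP1 (-0.85 to 0.71), SED1 (-0.25 to 0.040) and TIR1 (-0.27 to 0.32). These fits mix genotype with the date tag. CCW12 also turned under quantile normalization over the genes, to -0.0090 between genotypes and 0.090 between replicate numbers. Between replicate numbers PIR1 (-0.095 to 0.58) and CWP1 (-0.78 to 0.11) turned with 1 array left out. The cause of these turns was not tested. TIR1 missed the threshold there with the genotype as a covariate, all probe sets (adjusted p = 0.0707 in limma), quantile normalization (0.0878), and without replicate 1 of wild type (0.141) or of the deletion (0.148). TIR1 lay 0.24 above background in deletion replicate 2, and what this did to its value was not tested.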

Other observations

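Other cell wall genes also differed between the replicate numbers. Of the 147 list genes measured, 13 were higher and 19 lower in replicate 2 in limma, which is 21.8% against 28.4% of all genes; with arrays centred on the median gene the split was 20 higher and 14 lower, and with quantile normalization over genes 23 and 13. Of 18 wall integrity signalling genes 5 fell and 1 rose, beside 28.4% of all genes called and 19.7% lower, and nothing particular to this list is read from the count. SLT2, the MAP kinase of the pathway, fell by 1.13 on the log2 scale and MKK1, a kinase above it, by 0.71. RLM1, a transcription factor below it, fell by 0.57, MID2, a surface sensor, by 0.55, and BCK1, a kinase above MKK1, by 0.49. KDX1, a target of the pathway, rose by 0.44. With the genotype as a covariate 2 of these genes, SLT2 and MKK1, passed, both lower, and the calls of RLM1, MID2, BCK1 and KDX1 were lost. With the arrays centred or quantile normalized 3 genes of the list were called lower.

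Of 24 mannosylation genes 5 fell, a share near the 19.7% of all genes, and 3 did so under centring or with the genotype as a covariate. PMT1 and PMT3, protein mannosyltransferases that start O-mannosylation, fell by 0.78 and 1.10, and PMT2, whose call was lost with the covariate (adjusted p = 0.0779 in limma), by 0.45. FKS1, the main glucan synthase, rose by 0.56. SWI4 and SWI6, the subunits of the SBF transcription factor, rose by 0.92 and 0.85. Of the daughter cell genes DSE1 and DSE2 rose by 1.05 and 0.94. UPC2, a regulator of sterol genes, fell by 1.45, and SPI1, a stress-induced wall protein, by 1.77. UPC2 lay 0.088 above background in deletion replicate 2, and what this did to the size of its fall was not tested. AGA2, the binding subunit of a-agglutinin, rose by 1.27 and AGA1 by 0.65. None of the 5 hypoxic wall mannoprotein genes passed. These genes were named after their values were seen, and since the replicate numbers differ in the date tag, what else differed between those arrays is not given in the labels.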
